A study of Mus musculus with 8 samples.

Results

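The lungs of 3 mice given a high dose of lipopolysaccharide (LPS) and of 3 control mice were compared across all genes 24 h after injection. These 6 RNA sequencing libraries were chosen by their treatment labels, control and LPS, from the 8 of the series, and the other 2 came from mice given LPS together with YW3-56, an inhibitor of PAD4. LPS, a glycolipid of the outer membrane of Gram-negative bacteria, served in the study as a model of endotoxin shock, and whole lung RNA was counted gene by gene.

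All mice were of the strain C57BL/6 (C57BL/6J in the methods of the study), female and 6 to 8 weeks old. The control mice, numbers 1, 2 and 4, received DMSO through the tail vein and then saline into the peritoneum. The LPS mice, numbers 1, 6 and 7, were injected with LPS at 35 mg/kg, dissolved in saline. The methods list DMSO for the control mice and name none for these LPS mice, so effects of LPS and of DMSO cannot be told apart. About 24 h later 1 side of the lung of each mouse gave 1 library. The libraries held 19061949, 19796242 and 20527836 counts in control mice 1, 2 and 4, and 20818501, 19379911 and 19279724 counts in LPS mice 1, 6 and 7. Levels are given as CPM, counts relative to the library total after scaling by edgeR's trimmed mean of M-values (TMM), in that order of mice. The floor of 3 counts per library stood at 0.138 to 0.178 CPM. A gene was called when edgeR's quasi-likelihood test gave a Benjamini-Hochberg adjusted p under 0.05 over all 18560 tested genes together with a fold change over 2, in a fit that also held the 2 libraries of mice given LPS with YW3-56. Rose and fell are used of called genes alone. Values after ± are the standard error (SE) of a log2 fold change between groups of 3 mice. The SE was taken from that fit, so the 2 libraries of mice given LPS with YW3-56 also enter it. It is not a measure of the spread of the 3 control and 3 LPS mice alone.

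Gas exchange in the lung takes place across a thin wall made of flat alveolar type 1 cells, surfactant-making type 2 cells, a dense capillary bed and fibroblasts. After endotoxin, the vessels take up an adhesive and clot-promoting state, leukocytes leave the blood, and both the endothelial and the epithelial barrier can fail. Scgb1a1, the main secretory protein of club cells, had the most counts of any gene in each of the 6 libraries, with 3.15% to 5.29% of the counts. Sftpc, the surfactant protein specific to type 2 cells, stood at 21960 and 11553 CPM per kb of exon in the control and LPS groups. Albumin (Alb), the defining gene of liver, stood at 0.636, 0.892 and 0.598 against 0.475, 0.635 and 0.781 CPM.

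LPS mice 6 and 7 stood apart from the rest in genes of stratified squamous epithelium, the layered lining of gullet and skin, and of skeletal muscle. The source of this RNA was not tested. Krt13, a keratin of the upper layers of such linings, was at 0.294, 0.0939 and 0.184 CPM in the control mice and at 0.297, 286 and 887 CPM in LPS mice 1, 6 and 7. Of the 20 genes of the squamous list 19 were tested, 12 rose and 1, Ivl, fell, where over all tested genes 17.9% were called higher and 21.3% lower in LPS mice. Members without a count in the control mice passed the low-count filter only through other libraries. The count of 12 can therefore not be weighed against these shares. With a minimum of 10 counts in each library 1 squamous gene was called higher, at a list median of 1.26. The summed level of the list was 64.5, 51.6 and 55.7 CPM in the control mice and 41.5, 1011 and 2547 CPM in the LPS mice, and Krt13 gave 31.1% of it, ahead of Krt4, a keratin of the same layers. The desmosomal cadherin Dsg3 and the cornified-layer genes Krt16, Crct1, Sprr3, Sprr1b and Krtdap had no count in any control mouse, and Krt4, the keratin Krt6a, Sprr1b, Sprr3, Dsg3 and Krtdap had none in LPS mouse 1. Against a floor of 3 counts per library Krtdap was at least 471-fold higher in the LPS group. Ivl, the envelope protein involucrin, went the other way, with 2.69, 2.25 and 2.8 CPM in the control mice and 0.356, 0.0578 and 0.0558 CPM in the LPS mice. Without LPS mice 6 and 7 the count of squamous genes called higher was 0 with edgeR, 4 fell, and the median log2 fold change of the list turned from 6.54 to -2.63. Many of these genes are at or near 0 counts in LPS mouse 1, and with 0.5 CPM added the median log2 ratio of that mouse to the control mean was -0.01. In a fit of the 6 libraries alone 2 were called higher and the median was 1.16. It was 1.65 without LPS mouse 6 alone and 0.73 without LPS mouse 7 alone, with 4 genes called higher in either case.

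Skeletal muscle genes followed the same mice. All 13 tested genes of the list of 15 were called higher. Members near 0 counts in the control mice and LPS mouse 1, such as Myh1, passed the low-count filter only through other libraries. The count of 13 can therefore not be weighed against the 17.9% of all tested genes. With a minimum of 10 counts in each library 8 were called higher. The median log2 fold change of the tested genes was 4.59 (4.08 with genes at 0 in the control mice set to their bound). The summed level of the list was 29.4, 86.1 and 47.8 CPM in the control mice and 63.2, 671 and 1546 CPM in the LPS mice. Acta1, the actin of skeletal muscle and the most abundant of the list, stood at 0, 0.329 and 0.69 CPM in the control mice and 0.534, 210 and 600 CPM in the LPS mice. Myh1, a fast myosin heavy chain, stood at 0, 0.141 and 0.046 against 0, 72 and 163 CPM. Mb, the oxygen-binding protein of red muscle and heart, stood at 16.3, 52.2 and 28.6 CPM in the control mice and 36.7, 97.1 and 95.3 CPM in the LPS mice, so control mouse 2 lay above LPS mouse 1, and its call was lost without LPS mouse 6 (1.04 on the log2 scale) or LPS mouse 7 (1.06), without both (0.19), without control mouse 1 (0.92) or control mouse 4 (1.17), and with library size scaling (0.98). Without LPS mice 6 and 7 together the muscle median was 0.14, 8 members were called without either mouse alone, and limma-voom called 3 muscle genes and 0 squamous genes higher. The log2 fold changes with limma-voom were 7.84 for Krt13, 7.83 for Krt4, 7.83 for Acta1 and 6.83 for Myh1. With edgeR they were 10.97, 11.64, 9.58 and 10.15. The part of these genes in the results below was not tested, and values without LPS mice 6 and 7 are given beside many of them.

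**Figure D1:**
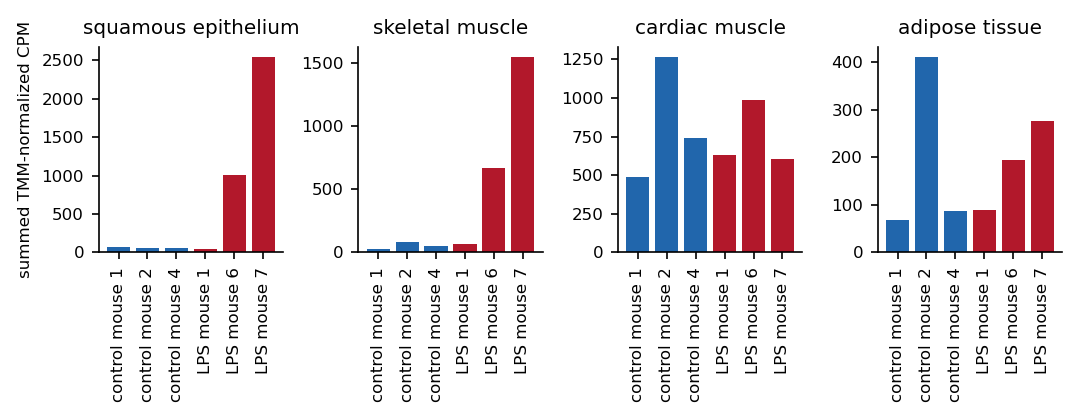
Summed level in CPM (linear axes from 0, a scale for each panel) of the genes of 4 lists of other tissues, with 1 bar for each mouse, control in blue and LPS in red. For squamous epithelium and skeletal muscle LPS mice 6 and 7 stand above all others, at 1011 and 2547 CPM and at 671 and 1546 CPM, whereas the heart muscle and adipose sums are highest in control mouse 2, at 1266 and 411 CPM.

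Genes of heart muscle, fat, thymus and liver did not separate the groups in this way. Heart muscle genes, which the muscle sleeves of mouse pulmonary veins also express, summed to 485, 1266 and 738 CPM in the control mice and 633, 986 and 603 CPM in the LPS mice, with control mouse 2 on top. Of 10 tested heart muscle genes 1 rose (2 without LPS mouse 7, 0 without control mouse 1, control mouse 4 or LPS mouse 6, or without LPS mice 6 and 7 together) and 2 fell (1 without those 2 mice), around a median of 0.19 that turned to -0.09 with library size scaling, without LPS mice 6 and 7, or without control mouse 1, and to -0.02 without LPS mouse 6. The shares of heart muscle genes called higher and lower, 10% and 20%, were under the 17.9% and 21.3% of all tested genes. Myl7, the atrial light chain, stood at 46.9, 92.1 and 63.2 against 94.6, 128 and 68.6 CPM. Myh7, the slow myosin heavy chain, fell from 27.3, 29.5 and 27.2 to 2.08, 2.6 and 1.73 CPM, with no overlap. Sln, an inhibitor of the calcium pump of muscle, rose by 1.09 ± 0.24 (log2), a call lost without LPS mice 6 and 7 together (0.68), without control mouse 1 (0.95), control mouse 4 (0.99) or LPS mouse 6 (0.91), and with library size scaling (0.82). Adipose genes summed to 69.1, 411 and 87.2 CPM in the control mice and 89.2, 194 and 277 CPM in the LPS mice, with a median of -0.21 that was 1.01 without control mouse 2, where 2 genes were called higher, 0.22 without LPS mouse 1 and -1.25 without LPS mice 6 and 7. The single one called, Plin1 of the lipid droplet, fell by 3.29 on the log2 scale and lost its call without control mouse 2 (-1.79), LPS mouse 1 (-2.81), LPS mouse 6 (-3.54), LPS mouse 7 (-3.63) or LPS mice 6 and 7 together (-5.45). Cfd, an adipose complement factor, stood at 43.9, 235 and 57.3 against 58.1, 120 and 128 CPM, and Ucp1, the uncoupling protein of brown fat, at 0.0489, 49.6 and 0.138 against 0.237, 2.83 and 37.7 CPM. Without control mouse 2, whose level was the highest, the fitted log2 fold change of Ucp1 turned from -0.28 to 7.07. The size of 7.07 cannot be read, since control mice 1 and 4 held 1 and 3 counts, at or under the floor. Of the thymus list the specific genes Dntt, Rag1, Rag2 and Ptcra, which act in the making of antigen receptors, were too low to be tested, with 0 to 5 counts in each library. The other 2, Cd1d1, which presents lipids to T cells, at 10.2, 10.9 and 14.6 against 7.12, 9.82 and 11.9 CPM, and Cd8a, the co-receptor of killer T cells, at 2.15, 1.64 and 1.29 against 1.9, 2.19 and 1.28 CPM, are not specific to thymus, and edgeR called 0 of them, as at an unadjusted p and with DESeq2 and limma-voom. In the liver list 3 of 9 were tested and Ahsg, a plasma protein of liver, fell, from 14, 16 and 8 counts in the control mice to 1, 1 and 1 in the LPS mice. The liver median of -0.16 was 0.03 without control mouse 2, 0.01 without LPS mouse 1 and -0.57 without LPS mice 6 and 7. The fitted log2 value of Ahsg, with 1 count in LPS mouse 1, was -3.21 without LPS mice 6 and 7, against -3.25 with all mice. Apob, the protein of liver lipoproteins, at 0.685, 0.892 and 0.782 against 1.48, 0.462 and 2.85 CPM, was called higher without LPS mouse 6 (1.46 on the log2 scale).

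LPS was followed by a wide change of the lung transcriptome, with 39.2% of the 18560 tested genes called, 17.9% higher and 21.3% lower. Counts of called genes in every list are to be read beside these shares. All LPS mice lay above all control mice in 34.7% of the tested genes and below them in 37.3%. Groups without overlap were thus common, and lack of overlap does not set a single gene apart. The median log2 fold change over all tested genes was -0.01, and the values of each gene list below stand beside it. Library size scaling moved it to -0.29, with the share of called genes that were higher at 32.5% in place of 45.6%, so list medians nearer to 0 than that shift depend on the scaling.

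By the rule of largest fold change at a minimum of 10 CPM, which admits only genes whose groups do not overlap, the genes named for their rise were the granulocyte growth factor Csf3, the acute-phase genes Saa1, Saa2 and Saa3, the chemokines Cxcl9, Cxcl10 and Ccl20, and Prss22, Slfn4 and Apol8, a gene of the apolipoprotein L family. Saa3, a serum amyloid A protein made in inflamed tissue, stood at 7.34, 5.26 and 19.6 CPM in the control mice and 6561, 9515 and 4355 CPM in the LPS mice. The LPS mice were 633-fold higher (9.31 ± 0.62 on the log2 scale). Saa2, a close relative of Saa1 that reads may not tell apart, had 1, 0 and 1 counts in the control mice and 1021, 1288 and 712 in the LPS mice. Prss22, a serine protease of airway epithelium, had 2, 2 and 2 counts against 702, 498 and 609. Slfn4, a Schlafen family gene of myeloid cells, rose from 5.28, 2.91 and 2.8 to 730, 822 and 714 CPM, and Ccl20, the ligand of the chemokine receptor Ccr6, from 0.147, 0.329 and 0.092 to 96.1, 102 and 69.8 CPM.

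The genes named by the same rule for their fall were Sox18, Cyp1a1, Ankrd63, Clec9a, Rem1, Clec1a, Kank4, Gja5, Rtkn2 and Prrt4, each at least 10 CPM in every control mouse. Ankrd63, a gene of ankyrin repeats, fell from 44.5, 51.6 and 53.2 to 0.297, 0.52 and 0.279 CPM, and Clec1a, a C-type lectin-like receptor, from 175, 187 and 169 to 2.14, 1.39 and 2.18 CPM. The small GTPase gene Rem1 had 563, 417 and 413 counts in the control mice and 4, 4 and 4 in the LPS mice. Kank4, of a family of proteins that link adhesions to microtubules, fell 70.3-fold, and Prrt4, a gene for a proline-rich membrane protein, 56.9-fold.

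**Figure D2:**
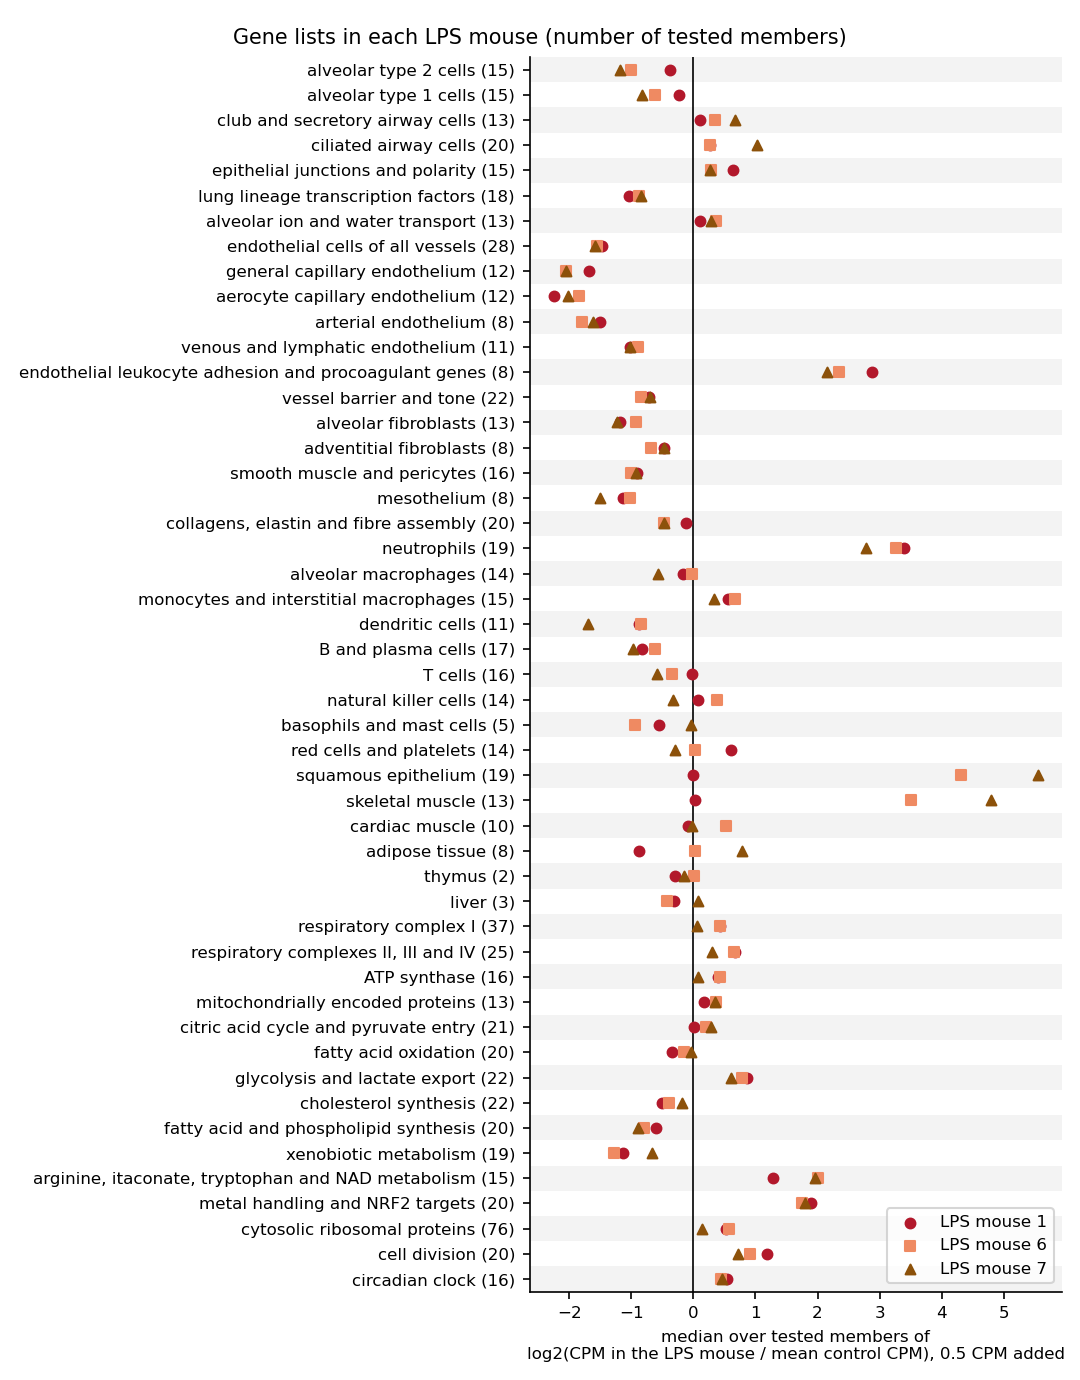
Median log2 ratio of the members of each gene list in each LPS mouse against the mean of the control mice, with 0.5 CPM added, 1 symbol for each LPS mouse. Medians of capillary endothelium lie near -2 in all 3 LPS mice, those of neutrophil genes between 2.78 and 3.39, and the squamous and muscle lists split LPS mouse 1 from LPS mice 6 and 7.

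In alveolar epithelium the type 1 marker Rtkn2 and the type 2 regulator Etv5 fell steeply, while the abundant markers Sftpc and Ager were not called. In the type 2 cell list 5 of 15 genes fell, 33.3% beside 21.3% of all tested genes. In that list 1 rose (0 without control mouse 2 or LPS mouse 1), 6.67% beside 17.9%, and the median log2 fold change was -0.87. In the type 1 list 6 of 15 fell, 40% beside 21.3% of all tested genes, with a median of -0.50. EdgeR called 0 type 1 genes higher, also 0 at an unadjusted p and with DESeq2 and limma-voom (1 without control mouse 1 or LPS mouse 7). The 3 LPS mice differed in depth of the loss, with list medians of -0.37, -1.01 and -1.19 for type 2 genes and -0.23, -0.62 and -0.83 for type 1 genes in LPS mice 1, 6 and 7. LPS mouse 1 lay nearest to the control mice, and without LPS mice 6 and 7 the type 2 median was -0.36, with 4 genes lower, and the type 1 median -0.22, with 5 lower and 1 higher. In bulk tissue, fewer cells of a type and less RNA per cell cannot be told apart.

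Etv5, an ETS transcription factor that sustains the identity of type 2 cells (ENSMUSG00000013089, chromosome 16, 22200052 to 22259662, GRCm39), was at 236, 182 and 251 CPM in the control mice and 23.8, 25.2 and 22.6 CPM in the LPS mice. No LPS mouse came near a control mouse, and Etv5 fell 9.34-fold, by 3.22 ± 0.15 on the log2 scale (adjusted p = 5.54e-07, edgeR's quasi-likelihood test, Benjamini-Hochberg, lower in 3 of 3 LPS mice). The surfactant proteins split. Sftpc stood at 24217, 19567 and 24535 CPM in the control mice and 16566, 11054 and 8322 CPM in the LPS mice, and Sftpb, whose product spreads surfactant at the air surface, at 5513, 4829 and 6435 CPM in the control mice and 3884, 2617 and 2443 CPM in the LPS mice. Both groups were apart, yet at -0.93 ± 0.32 and -0.91 ± 0.23 on the log2 scale neither passed the fold of 2, as both did without LPS mouse 1 (-1.23 and -1.14), without control mouse 2 (-1.03 and -1.01) or with library size (-1.24 and -1.21) or upper-quartile scaling (-1.03 and -1.01). Sftpd, a collectin that binds microbes, was instead higher, at 1462, 1397 and 1550 against 3380, 2907 and 2649 CPM. At 1.02 ± 0.16 its call was marginal, and it was lost with library size (0.73) or upper-quartile scaling (0.92), with no filter on low counts (0.99), without control mouse 2 (0.98) and without LPS mouse 1 (0.93).

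Of the genes of the type 2 list that fell, 3 more were chosen after their values were seen. Slc34a2, the phosphate transporter of their surface, fell from 1999, 1786 and 2181 to 415, 457 and 374 CPM. Lpcat1, which makes the saturated phosphatidylcholine of surfactant, fell 3.63-fold, and Abca3, the lipid pump of lamellar bodies, 2.44-fold. The number of type 2 genes lower was 8 in place of 5 with library size scaling and without LPS mouse 1. Muc1, the mucin of the apical surface, also chosen after its values were seen, stood at 227, 188 and 239 against 271, 259 and 265 CPM and was not called.

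Among type 1 cell genes Rtkn2, a marker of these cells (ENSMUSG00000037846, chromosome 10, 67815390 to 67895570), was at 310, 317 and 289 CPM in the control mice and 6.59, 4.5 and 4.97 CPM in the LPS mice. It fell 57.1-fold (-5.83 ± 0.17 on the log2 scale), and is 1 of the 10 genes named by the rule for their fall. Aqp5, the water channel of the type 1 cell surface, fell from 437, 426 and 436 to 132, 136 and 130 CPM. Ager, the receptor RAGE and the most abundant type 1 gene per length, stood at 2336, 2186 and 2338 CPM in the control mice and 2432, 2011 and 1296 CPM in the LPS mice, and its groups overlapped, with a log2 fold change of -0.26 that was 0.09 without LPS mice 6 and 7. Hopx, a homeodomain protein of type 1 cells, overlapped too, at 570, 496 and 487 against 559, 507 and 370 CPM, and its value of -0.11 was 0.12 without those mice. Further falls, named after their values were seen, were those of the scaffold protein Akap5 (-3.08), the chloride channel-like protein Clic5 (-1.54), the basement membrane collagen chain Col4a4 (-1.36) and Lmo7 (-1.14, all log2), a protein of cell junctions.

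Transcription factors that build the lung were lower more often than higher, at 9 of 18 lower and 2 higher, around a median of -0.99. Nkx2-1, the master factor of lung epithelium, stood at 317, 306 and 309 CPM in the control mice and 61.3, 63.4 and 53.9 CPM in the LPS mice. The LPS mice all lay below the control mice, a 5.22-fold fall (-2.38 ± 0.11 on the log2 scale, adjusted p = 4.64e-07, edgeR's quasi-likelihood test, Benjamini-Hochberg, 3 of 3 LPS mice lower). Its partners Foxa2 and Cebpa, which drive surfactant genes with it, and Grhl2, a factor of epithelial junctions, fell as well, with log2 fold changes of -1.77, -1.09 and -1.67, while Foxa1 was at 0.98 and not called (these 4 were chosen after their values were seen). Sox9, the factor of distal progenitors in the embryo, rose from 0.636, 0.798 and 0.506 to 14.8, 8.03 and 7.09 CPM, and Elf3, an epithelial ETS factor chosen after its value was seen, from 31.9, 29.8 and 31.6 to 168, 139 and 159 CPM. Foxf1, the factor of lung mesenchyme and capillaries, stood at 194, 182 and 183 against 331, 211 and 263 CPM, not called. Without LPS mice 6 and 7 or without control mouse 2 the count of factors higher was 4.

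Epithelial junction genes were higher in part, 33.3% of them beside 17.9% of all tested genes. In their list 5 of 15 rose, 0 fell with edgeR (also 0 at an unadjusted p and with DESeq2 and limma-voom, 1 with library size scaling), and the median was 0.36, or 0.06 with library size scaling and 0.63 without LPS mice 6 and 7. Cdh1, or E-cadherin, the main adhesion protein of epithelia, was at 296, 298 and 301 CPM in the control mice and 954, 722 and 783 CPM in the LPS mice, 2.75-fold higher with no overlap. Cldn4, a claudin that tightens the barrier, rose from 5.09, 6.1 and 4.18 to 23.1, 16.1 and 20.8 CPM. Cldn3, the most abundant claudin of the list per length, overlapped at 225, 243 and 283 against 267, 216 and 228 CPM. Epcam, Cldn7 and Tjp3, an adhesion molecule, a claudin and a tight junction scaffold named after their values were seen, rose 2.91-, 2.21- and 2.08-fold. With library size scaling 3 genes of the list were called higher.

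Of 13 tested genes of alveolar fluid clearance 15.4% were higher and 23.1% lower, near the 17.9% and 21.3% of all tested genes. Their median of 0.26 was -0.02 with library size scaling, 0.11 without LPS mice 6 and 7 and 0.46 without control mouse 4. The fall of Aqp5 stood beside that of Cftr, the chloride channel mutated in cystic fibrosis (19.4, 21.8 and 16.8 against 6.76, 6.01 and 5.14 CPM), and of the chloride transporter Slc26a9 (85.7, 90.6 and 102 against 37, 30.4 and 35.9 CPM), both named after their values were seen. Scnn1a, the pore subunit of the epithelial sodium channel, stood at 631, 530 and 526 CPM in the control mice and 1074, 983 and 1013 CPM in the LPS mice, without overlap, yet under the fold of 2. Aqp1, the water channel of capillaries, overlapped at 817, 941 and 908 against 869, 817 and 635 CPM. Aqp4, a water channel of airway cells and 1 of the 2 genes higher, was called at 7.14, 7.6 and 5.75 against 9.2, 14.4 and 28.2 CPM, a call that ended without LPS mouse 7 (0.80 on the log2 scale), control mouse 4 (1.23) or both LPS mice 6 and 7 (0.43).

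In the club and secretory list 3 of 13 genes rose, 23.1% and near the 17.9% of all tested genes, and 1 fell (2 without control mouse 1, control mouse 4 or LPS mouse 1), with a median of 0.50, or 0.11 without LPS mice 6 and 7. With library size scaling 2 were called higher and 3 lower. The count lower was 2 with limma-voom, upper-quartile scaling or no filter on low counts, and 0 when tested against a fold of 2. Muc5b, the secreted gel-forming mucin of airway defence, stood at 85.1, 86.7 and 81.9 CPM in the control mice and 1187, 1035 and 2100 CPM in the LPS mice. It was 17-fold higher (4.09 ± 0.51 on the log2 scale), highest in LPS mouse 7. Scgb1a1 was at 29414, 36837 and 34433 CPM in the control mice and 65313, 55395 and 53726 CPM in the LPS mice, apart but under the fold of 2 at 0.79. Cbr2, a carbonyl reductase of club cells, overlapped at 3208, 3907 and 4033 against 3312, 2803 and 3385 CPM, and Cckar, a cholecystokinin receptor, fell from 13.8, 31.9 and 20.6 to 5.46, 7.33 and 10.6 CPM. Dnah9, a dynein heavy chain of the ciliary motor, rose from 16.6, 20.7 and 17.5 to 43.6, 46 and 82.1 CPM. It was the 1 gene called higher of 20 in the ciliated list, 5% beside 17.9% of all tested genes. That count was 2 without control mouse 2, 5 without LPS mouse 1 and 6 without LPS mouse 6, and the list median was 0.27, 0.27 and 1.03 in LPS mice 1, 6 and 7. Foxj1, the master factor of motile cilia, stood at 98, 148 and 130 against 170, 195 and 255 CPM, and Tppp3, a microtubule-binding protein of cilia, at 296, 335 and 382 against 250, 202 and 223 CPM, neither called.

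Genes of the vascular bed fell widely in all 3 LPS mice. Of 28 genes shared by endothelial cells of all vessels 18 fell and 3 rose, with a median of -1.57. The count higher was 1 with library size scaling and 1 when tested against a fold of 2. Of 12 genes of general capillary cells 9 fell, with a median of -1.92, and of 12 genes of aerocytes, the large capillary cells of gas exchange, 10 fell, with a median of -2.10. In neither list was a gene called higher by edgeR, DESeq2 or limma-voom, nor at an unadjusted p. The list medians of LPS mice 1, 6 and 7 were -1.69, -2.05 and -2.05 for general capillary cells and -2.25, -1.85 and -2.02 for aerocytes.

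Sox18, a transcription factor of vascular and lymphatic endothelium, had the lowest fold change of all genes that met the naming rule (ENSMUSG00000046470, chromosome 2, 181311629 to 181313438). Its level was 333, 353 and 411 CPM in the control mice and 1.96, 2.02 and 1.62 CPM in the LPS mice. The LPS values lay within a narrow band near 2 CPM, a 195-fold fall (-7.61 ± 0.16 on the log2 scale, adjusted p = 2.11e-08, edgeR's quasi-likelihood test, Benjamini-Hochberg). The naming rule admits only called genes without overlap. That p passed the threshold and that every LPS mouse was lower therefore followed from the choice of Sox18. Cldn5, the claudin of endothelial tight junctions and the most abundant gene of the list per length, did not follow, at 577, 626 and 649 against 638, 610 and 576 CPM with overlapping groups. Klf2, a factor induced by laminar flow, was called higher at 247, 235 and 262 against 588, 537 and 464 CPM, a call that ended with library size scaling (0.80 on the log2 scale). Procr, the receptor of protein C, rose from 6.75, 5.91 and 6.02 to 22.1, 24 and 21 CPM.

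Some further genes of the list of all vessels were picked after their values were seen. Calcrl, the receptor through which adrenomedullin seals vessels, fell from 719, 830 and 719 to 22.2, 24.5 and 24.8 CPM, and Ramp2, its partner protein, from 547, 515 and 527 to 31.1, 37.8 and 36.6 CPM. The factor Erg, which holds endothelial identity, fell 12.3-fold, Tek, the angiopoietin receptor, 9.69-fold, and Acvrl1, a receptor of bone morphogenetic proteins, 9.7-fold. Pecam1, an adhesion molecule common to endothelial cells, fell from 618, 679 and 672 to 254, 218 and 213 CPM. Cdh5, or VE-cadherin of the endothelial junction, was not called and overlapped, at 590, 659 and 737 against 938, 657 and 642 CPM.

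Within the capillary lists Glp1r, the receptor of glucagon-like peptide 1, was at 111, 119 and 140 CPM in the control mice and 3.38, 3.06 and 2.57 CPM in the LPS mice, a 41.1-fold fall. Adgrf5, an adhesion receptor and the most abundant general capillary gene per length, stood at 1840, 1872 and 1859 against 1271, 987 and 1115 CPM, apart but called with library size scaling alone (-1.02). Plvap, the protein of capillary diaphragms, fell from 382, 455 and 478 to 130, 100 and 93.9 CPM. Among aerocyte genes Apln, the ligand of the apelin receptor, fell from 22.8, 17.6 and 15.9 to 0.712, 1.16 and 1.17 CPM, and Cyp4b1, a P450 enzyme abundant in lung, from 995, 1010 and 936 to 400, 316 and 319 CPM. Kdr, the main receptor of Vegfa, fell 6.07-fold, and Aplnr, the apelin receptor and a gene of the general capillary list, 9.49-fold. Both were named after their values were seen. Pmp22, a small membrane protein, was at 409, 411 and 395 against 294, 207 and 186 CPM and passed the fold of 2 with library size scaling (-1.13) or without LPS mouse 1 (-1.04).

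Genes of arteries and veins fell in part. In the arterial list 4 of 8 genes fell and edgeR called 0 higher (0 too at an unadjusted p and with DESeq2 and limma-voom), at a median of -1.66. Gja5, the gap junction protein connexin 40 of arterial endothelium, was at 36.7, 41.2 and 46 CPM in the control mice and 0.771, 0.635 and 0.391 CPM in the LPS mice, and Sema3g, an arterial semaphorin, at 286, 273 and 330 CPM in the control mice and 16, 27.1 and 22.9 CPM in the LPS mice. Neither overlapped, whereas Gja4, or connexin 37, did at 35.1, 42.9 and 54.4 against 66.9, 73.9 and 48.8 CPM. In the venous and lymphatic list 6 of 11 fell and 1 rose, at a median of -1.09. Slc6a2, a noradrenaline transporter of pulmonary vein endothelium, fell from 80.1, 130 and 96.1 to 4.92, 4.79 and 6.53 CPM. Lyve1, the hyaluronan receptor of lymphatic vessels and of some macrophages, rose from 334, 273 and 209 to 2056, 1787 and 1504 CPM, while Ccl21a, a chemokine of lymphatics, fell from 37.5, 41.7 and 41.2 to 13.1, 9.93 and 13.2 CPM.

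**Figure D3:**
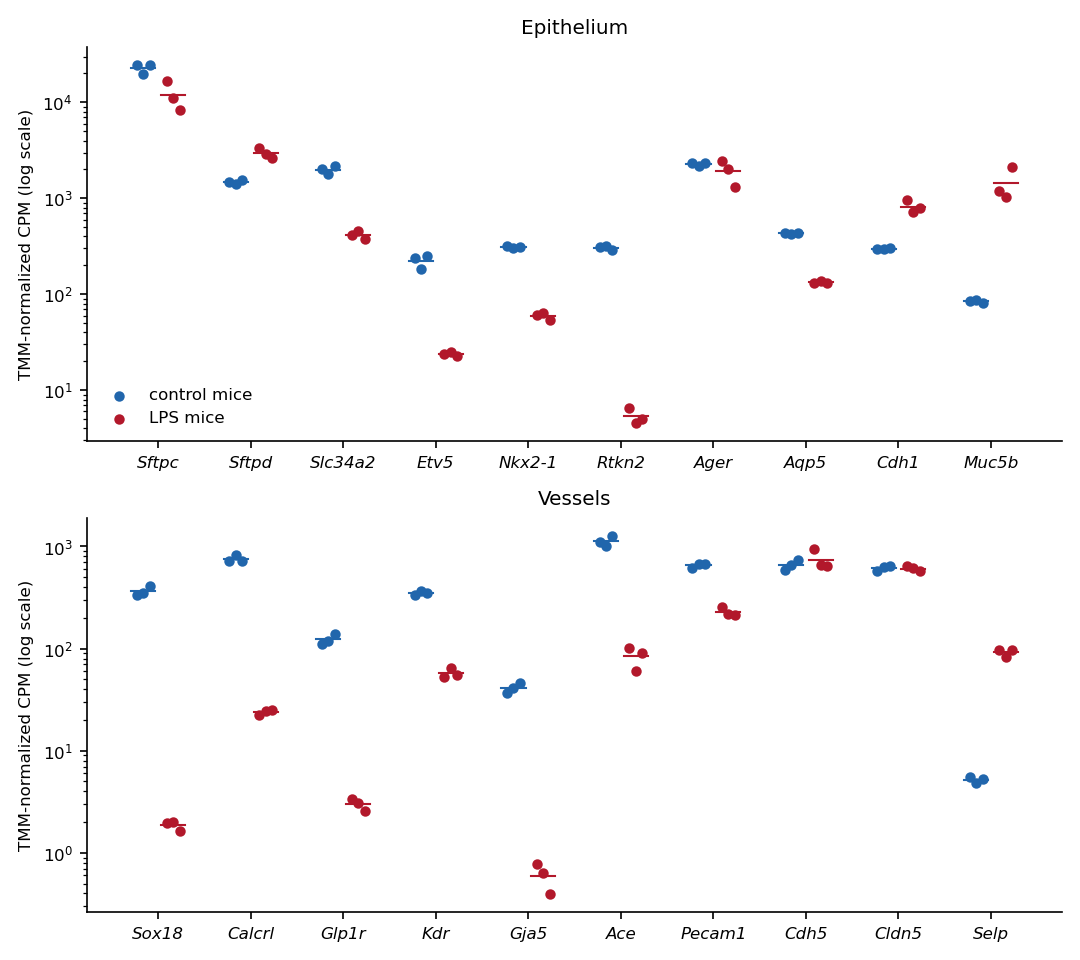
Level in CPM (log axis) of 10 epithelial and 10 vessel genes in the 3 control and 3 LPS mice, each point a mouse and each line a group mean. Sox18, Calcrl, Glp1r, Gja5 and Rtkn2 lie far below their control values in every LPS mouse, Cldn5 and Cdh5 overlap, and Selp and Muc5b lie above.

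Of 8 genes of leukocyte adhesion and clotting 7 rose and 1 fell, with a median of 2.46. Leukocytes also express some of them, such as Icam1, F3 and Plaur, neutrophil genes were higher in 18 of 19 cases in the same mice, and the part of those cells was not tested. Selp, or P-selectin, on which leukocytes start to roll, stood at 5.53, 4.83 and 5.24 CPM in the control mice and 96.9, 82.1 and 96.1 CPM in the LPS mice. All LPS mice lay above all control mice, a 17.6-fold rise (4.14 ± 0.49 on the log2 scale, adjusted p = 5.7e-05, edgeR's quasi-likelihood test, Benjamini-Hochberg). Icam1, the ligand of leukocyte integrins, rose from 450, 439 and 457 to 2428, 1755 and 1736 CPM, and Plaur, the urokinase receptor, from 79.4, 62.3 and 61.8 to 886, 538 and 470 CPM. F3, or tissue factor, which starts clotting, rose 3.56-fold and was named after its value was seen. Vwf, the platelet-binding factor of endothelium, was the exception, falling from 498, 657 and 639 to 166, 146 and 191 CPM. Thbd, or thrombomodulin, which holds clotting in check, fell too, from 529, 654 and 611 to 152, 96 and 116 CPM, in the list of all vessels, and was chosen after its value was seen.

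Genes of barrier and vascular tone were lower more often than higher, at 10 and 4 of 22, with a median of -0.71. Ace, the enzyme that makes angiotensin II on the surface of lung capillaries, was at 1104, 1007 and 1269 CPM in the control mice and 102, 60.5 and 91.3 CPM in the LPS mice. No values overlapped, and Ace fell 13.3-fold (-3.74 ± 0.23 on the log2 scale). Vegfa, the growth factor of capillaries, fell from 785, 824 and 889 to 389, 310 and 284 CPM. Of the genes that fell, 5 more were chosen after their values were seen. Gucy1a1 and Gucy1b1, subunits of the enzyme that makes cyclic GMP in answer to nitric oxide, fell 7.97- and 5.4-fold, Pde5a, which breaks cyclic GMP down, 8.35-fold, Npr1, a receptor of natriuretic peptides, 5.46-fold and Angpt1, the barrier-sealing ligand of Tek, 5.3-fold. Adm, or adrenomedullin, a dilator, rose from 17.3, 18.2 and 20 to 185, 83.4 and 86.1 CPM while its receptor genes Calcrl and Ramp2 fell, and Edn1, the constrictor endothelin 1, rose 3.56-fold, also named after its value was seen. Without LPS mice 6 and 7 the number higher was 2.

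In the alveolar fibroblast list 7 of 13 genes fell, at a median of -1.09, in the list of smooth muscle and pericytes 8 of 16, at -1.06, and in that of mesothelium, the cell layer on the lung surface, 6 of 8, at -1.33. In the adventitial list 2 of 8 fell, 25% and near the 21.3% of all tested genes, and 1 without LPS mice 6 and 7, at -0.62. In these 4 lists 0 genes were called higher by edgeR, by DESeq2 and limma-voom, or at an unadjusted p. Inmt, a methyltransferase abundant in mouse lung fibroblasts, was at 2935, 2958 and 3280 CPM in the control mice and 177, 161 and 145 CPM in the LPS mice. It fell 19-fold (-4.24 ± 0.22 on the log2 scale), and Slc7a10, an amino acid transporter, fell from 15.6, 21.4 and 18.5 to 1.13, 0.462 and 0.558 CPM. Ces1d, a carboxylesterase and the other most abundant gene of the list per length, overlapped at 518, 609 and 589 against 464, 465 and 595 CPM.

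In the list of smooth muscle and pericytes the most abundant genes per length, Acta2 and Des, were not called. Higd1b, a mitochondrial protein marking pericytes, was at 31.6, 25 and 26.3 CPM in the control mice and 1.01, 1.04 and 1.56 CPM in the LPS mice, a 22.8-fold fall. Acta2, the smooth muscle actin, was apart at 77.5, 103 and 80.4 against 121, 140 and 141 CPM but under the fold of 2, and Des, or desmin, overlapped at 119, 140 and 125 against 77.7, 129 and 183 CPM, and was not called, at 0.02 on the log2 scale, -0.30 without LPS mouse 7 and -0.71 without LPS mice 6 and 7. Notch3, a receptor that maintains mural cells, and Cspg4, the pericyte proteoglycan NG2, named after their values were seen, fell 3.34- and 2.87-fold. In mesothelium Lrrn4, a membrane protein of that layer, fell from 47.7, 36.5 and 35.9 to 11, 8.26 and 6.42 CPM and Krt19, a keratin shared with airway epithelium, from 250, 276 and 296 to 101, 88.5 and 79.4 CPM, while Msln, or mesothelin, overlapped at 257, 192 and 222 against 266, 237 and 220 CPM. Mfap5, a microfibril protein of adventitia, fell 4.08-fold, and Gsn and Dpt, for gelsolin and dermatopontin, were not called, at 2935, 3067 and 3319 against 2177, 1753 and 1909 CPM and 138, 117 and 136 against 130, 112 and 94 CPM.

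Of 20 matrix genes 3 rose and 6 fell, 15% and 30% beside 17.9% and 21.3% of all tested genes, at a median of -0.32. With library size scaling 1 was called higher and 7 lower, at a median of -0.61. Without LPS mice 6 and 7 the median was -0.12. Col4a1, a chain of the basement membrane, was at 725, 741 and 773 CPM in the control mice and 2063, 1605 and 1623 CPM in the LPS mice, 2.36-fold higher, under the fold of 2 with library size scaling (0.95 on the log2 scale). Col15a1, a collagen of vascular and muscle basement membranes, rose from 5.14, 3.52 and 3.17 to 22.1, 26.6 and 23.3 CPM. Among fibre genes Col6a3, a chain of microfibrillar collagen, fell from 49.3, 49.8 and 56.1 to 13.5, 8.66 and 6.75 CPM, and, named after their values were seen, elastin (Eln) from 701, 598 and 596 to 94.3, 163 and 126 CPM and Col1a1, a chain of fibrillar collagen, from 128, 147 and 142 to 65.2, 56.3 and 60.2 CPM. Sparc, a collagen-binding protein, overlapped at 1593, 1427 and 1400 against 1542, 1178 and 1026 CPM.

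Neutrophil genes were higher in 18 of 19, with list medians of 3.39, 3.26 and 2.78 in LPS mice 1, 6 and 7. Lcn2, the iron-scavenging lipocalin that injured epithelium also makes, was the most abundant, at 149, 106 and 154 CPM in the control mice and 14051, 14500 and 10156 CPM in the LPS mice, a 94.7-fold rise. S100a9, a calcium-binding protein of neutrophil granules and cytosol, stood at 98.3, 55.5 and 57.3 CPM in the control mice and 1362, 1856 and 1183 CPM in the LPS mice. In the list of monocytes and interstitial macrophages 7 of 15 rose and 3 fell (1 without LPS mice 6 and 7), at a median of 0.50. Plac8, a gene of inflammatory monocytes and neutrophils, rose from 15.4, 19.3 and 14.5 to 207, 244 and 135 CPM, and Nr4a1, the nuclear receptor of patrolling monocytes and an immediate-early gene, from 62.3, 46.8 and 51.3 to 605, 269 and 298 CPM. Ccr2, the receptor that brings monocytes out of the marrow, fell from 21.7, 16.7 and 17.7 to 2.31, 2.08 and 1.73 CPM, and Cx3cr1, the fractalkine receptor, named after its value was seen, from 6.21, 6.1 and 6.71 to 1.25, 0.751 and 0.112 CPM.

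Of 14 alveolar macrophage genes 4 were lower, 28.6% beside 21.3% of all tested genes, and 1 was higher, with a median of -0.12, which was 0.06 without LPS mouse 7. Chil3, a chitinase-like protein and their most abundant gene per length, overlapped at 594, 406 and 558 against 654, 742 and 340 CPM, and Ear2, a ribonuclease with close relatives, fell from 85, 57.4 and 77.1 to 17.9, 14.5 and 7.98 CPM. Plet1, a surface protein, was called higher at 41.2, 45.1 and 46.4 against 102, 81 and 88.8 CPM, a call lost without control mouse 1 (0.98) or LPS mouse 1 (0.95) and with library size (0.74) or upper-quartile scaling (0.94). Siglecf, a lectin that defines these macrophages and eosinophils, chosen after its value was seen, fell from 12.8, 7.93 and 10.8 to 3.32, 3.29 and 2.34 CPM.

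Dendritic cell genes moved both ways. Clec9a, the receptor for dead cells on type 1 dendritic cells, was at 64.6, 56.6 and 61.4 CPM in the control mice and 0.534, 0.52 and 0.781 CPM in the LPS mice. The LPS values all stood under 1 CPM, a 98.1-fold fall (-6.62 ± 0.17 on the log2 scale, adjusted p = 8.37e-08, edgeR's quasi-likelihood test, Benjamini-Hochberg). As for Sox18, the naming rule fixed in advance that p passed the threshold and that the groups did not overlap. In the list 6 of 11 tested genes fell and 3 rose, at a median of -1.76. Under a filter of 10 counts in each library, which drops genes near 0 in LPS mice, the median was 1.41 with 2 lower. Batf3, a factor these cells need, rose from 3.72, 2.02 and 1.93 to 17.4, 12.2 and 13.7 CPM, Irf8, an interferon-regulated factor, from 37.1, 35.3 and 41 to 198, 165 and 149 CPM, and Ccl17, a chemokine of activated dendritic cells and macrophages, from 11.1, 10.2 and 11 to 33.4, 31.1 and 22.9 CPM. Zbtb46, a factor of dendritic cells and of endothelium, named after its value was seen, fell from 49.7, 48.4 and 46.1 to 17, 12.1 and 13.5 CPM.

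In the list of B and plasma cells 7 of 17 fell and 1 rose, at a median of -0.71. Cr2, the complement receptor of B cells, fell from 32, 28 and 17 counts in the control mice to 0, 2 and 2 in the LPS mice. Ighm, the heavy chain of IgM, was not called at 59.4, 58.7 and 57.6 against 79.8, 107 and 78.3 CPM, and Igha, that of IgA, was at 91.8, 83.2 and 81.2 against 47.8, 61.9 and 47.1 CPM, apart but under the fold of 2. Fcer2a, the low-affinity IgE receptor, rose from 2.1, 3.24 and 2.02 to 9.2, 12.9 and 6.75 CPM. Among T cell genes 3 of 16 fell, a share of 18.8% beside 21.3% of all tested genes, at a median of -0.24. The count lower was 1 without control mouse 1, LPS mouse 6 or LPS mouse 7, and 6 without LPS mouse 1 or with library size scaling. Leaving out 1 library at a time, the median ranged from -0.41 to -0.04, and it was -0.05 without LPS mice 6 and 7. EdgeR called 0 T cell genes higher, also 0 at an unadjusted p, while DESeq2 and limma-voom each called 1, as edgeR did without control mouse 1, LPS mouse 7 or LPS mice 6 and 7. Cd4, the co-receptor of helper T cells, was at 3.13, 2.86 and 2.71 against 1.9, 0.635 and 0.502 CPM, a call lost without control mouse 1 (-1.47), LPS mouse 6 (-1.27), LPS mouse 7 (-1.19) or both (-0.60). Tcf7, a factor of naive T cells, was at 20.6, 26.8 and 20.7 against 15.4, 14.4 and 12.8 CPM and not called, and Trbc2, a T cell receptor chain, overlapped at 4.6, 3.61 and 4.55 against 6.35, 3.52 and 2.07 CPM.

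Of 14 natural killer genes 3 were higher (5 without LPS mouse 7) and 3 lower (1 without LPS mice 6 and 7), each 21.4% and near the 17.9% and 21.3% of all tested genes, with a median of 0.16 that was -0.13 with library size scaling, -0.13 without LPS mouse 6, 0.91 in a fit of the 6 libraries alone and 1.36 with a minimum of 10 counts in each library, where 0 were lower. Gzmb, or granzyme B, a protease of killer cell granules, rose from 1.32, 0.939 and 1.38 to 33.6, 23.3 and 12.5 CPM, and its relative Gzma from 5.33, 4.69 and 6.53 to 30.9, 25.5 and 11.2 CPM, while Klrd1, the receptor chain CD94, fell from 3.13, 1.69 and 2.25 to 0.178, 0.173 and 0.112 CPM. Among 5 tested genes of basophils and mast cells Mcpt8, a basophil protease, and Hdc, which makes histamine and is also expressed in neutrophils, rose, while 2 fell, among them Gata2, a factor shared with endothelium, from 204, 190 and 206 to 67.5, 45.6 and 50.7 CPM. With so few genes, the shares were 40% in each direction beside 17.9% higher and 21.3% lower over all tested genes. The count lower was 1 without control mouse 2, control mouse 4, LPS mouse 6 or LPS mice 6 and 7 together. Red cell and platelet genes had 2 of 14 higher, 14.3% and near the 17.9% of all tested genes. Their median of 0.18 was -0.13 with library size scaling, -0.04 without control mouse 1, -0.18 without LPS mouse 1 and 0.70 without LPS mice 6 and 7. Hba-a1 and Hbb-bs, the globin chains, overlapped at 613, 1233 and 908 against 1071, 782 and 515 CPM and 856, 2024 and 1454 against 1571, 829 and 698 CPM. Slc4a1, the anion exchanger of red cells, was called higher at 3.23, 9.2 and 3.17 against 20, 9.82 and 13.2 CPM, a call lost without control mouse 1 (1.21), control mouse 4 (1.20) or LPS mouse 1 (1.15), and the count of 2 fell to 0 without control mouse 1 or LPS mouse 1 and to 1 without control mouse 2 or 4, and was 4 without LPS mice 6 and 7.

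Among metabolic genes those of glycolysis rose in part, those of lipid synthesis and detoxification fell in part, and those of the respiratory chain were not called by edgeR. In the glycolysis list 7 of 22 rose and edgeR called 0 lower (0 at an unadjusted p and with DESeq2 and limma-voom, 1 with library size or upper-quartile scaling or without LPS mice 6 and 7), at a median of 0.82. The 31.8% of glycolysis genes called higher stood beside 17.9% of all tested genes. Hif1a, the oxygen-sensing factor that drives many glycolysis genes, was at 41.1, 44.5 and 46.4 CPM in the control mice and 448, 336 and 329 CPM in the LPS mice. It rose 8.43-fold (3.08 ± 0.22 on the log2 scale, adjusted p = 2.78e-06, edgeR's quasi-likelihood test, Benjamini-Hochberg, 3 of 3 LPS mice higher). Of the genes that rose, 3 more were chosen after their values were seen. Hk2, a hexokinase, was at 34.2, 41.2 and 37.8 against 301, 202 and 244 CPM, Pfkfb3, which makes the activator of phosphofructokinase, at 122, 126 and 112 against 674, 609 and 565 CPM, and Slc2a1, the glucose carrier GLUT1, at 35.9, 34.4 and 33.8 against 106, 93 and 98.1 CPM. Aldoa and Ldha, for aldolase and the subunit of lactate dehydrogenase that favours lactate, are the most abundant of the list per length, and were not called, at 439, 482 and 465 against 383, 455 and 538 CPM and 265, 297 and 281 against 462, 400 and 380 CPM. Gapdh, a glycolytic enzyme whose many pseudogenes share its sequence, was named after its values were seen, at 49.4, 44.8 and 42.5 against 140, 119 and 103 CPM, and its value is uncertain for that reason.

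Respiratory chain genes lay slightly higher, with medians of 0.38 for 37 genes of complex I, 0.54 for 25 genes of complexes II, III and IV, 0.36 for 16 of ATP synthase and 0.29 for 13 mitochondrially encoded proteins. Library size scaling brought these to 0.09, 0.24, 0.07 and 0.01. By adjusted p alone, with no fold change asked, 20, 20, 9 and 6 of these genes were higher and 3, 1, 0 and 0 lower. With the fold of 2 edgeR called 0 of the 91 genes in either direction, 0 also at an unadjusted p with the fold of 2 and with limma-voom, and DESeq2 called 1 of complex I and 2 of complexes II to IV. Without LPS mouse 7 the counts higher were 3, 4 and 1 in complex I, complexes II to IV and ATP synthase, 2 of complexes II to IV were higher without control mouse 2, and 1 mitochondrially encoded gene was higher without control mouse 1. Without LPS mice 6 and 7 the counts higher were 3, 3 and 1 in those lists, and 1 mitochondrially encoded gene was lower. Ndufa2 and Ndufa1, small subunits of complex I, stood at 98.3, 81.8 and 88.7 against 143, 141 and 82.3 CPM and 42.6, 38.9 and 38.2 against 74.5, 78.8 and 45.7 CPM, and mt-Cytb, the mitochondrially encoded cytochrome b, at 2621, 2852 and 2695 against 4206, 4493 and 4185 CPM. Cox6a1 and Cox8a, subunits of cytochrome oxidase, were at 226, 211 and 212 against 362, 346 and 228 CPM and 194, 177 and 178 against 297, 299 and 205 CPM, and Atp5f1b and Atp5f1a, the catalytic and its partner subunit of ATP synthase, at 473, 562 and 481 against 626, 671 and 639 CPM and 417, 515 and 468 against 697, 673 and 637 CPM. LPS mouse 7 was the lowest LPS mouse in Ndufa2, Ndufa1, Cox6a1 and Cox8a. The mitochondrially encoded oxidase subunit mt-Co1 stood at 3871 and 4520 CPM per kb in the control and LPS groups. Of the other mitochondrially encoded genes, mt-Co2, mt-Co3, mt-Atp6, mt-Atp8, mt-Nd3 and mt-Nd4l, subunits of the same chain named after their values were seen, stood at 2.3 to 42.6 CPM per kb in either group. The cause of this gap was not tested, and the median over the 13 genes includes them.

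In the list of the citric acid cycle and pyruvate entry 1 of 21 rose, 2 without control mouse 2 or without LPS mice 6 and 7, and 1 fell, at a median of 0.16 that was -0.13 with library size scaling and 0.01 without LPS mice 6 and 7. At 4.76% each, the shares higher and lower were under the 17.9% and 21.3% of all tested genes. Pdk4, a kinase that shuts pyruvate dehydrogenase in fasting and stress, was at 16.9, 25.1 and 14.8 CPM in the control mice and 188, 237 and 356 CPM in the LPS mice, a 13.8-fold rise, while Pdk2, another kinase of that enzyme, fell from 48.1, 57.8 and 54.3 to 12.7, 15 and 23.2 CPM. Mdh2, the malate dehydrogenase of the cycle, was apart at 114, 143 and 134 against 212, 217 and 200 CPM but under the fold of 2. In fatty acid oxidation 2 of 20 rose and 1 fell (2 lower without LPS mice 6 and 7, 1 higher and 4 lower with library size scaling), at a median of -0.10, or -0.38 with library size scaling, -0.35 without LPS mice 6 and 7 and 0.02 without control mouse 2 or LPS mouse 1. In this list too the shares higher and lower, 10% and 5%, were under those of all tested genes. Pnpla2, the lipase that opens fat stores, rose from 183, 209 and 183 to 817, 721 and 799 CPM. Acadl, the long-chain acyl-CoA dehydrogenase, rose 2.16-fold, a call lost with library size scaling (0.83 on the log2 scale), and Ppara, the factor of the pathway, fell from 4.26, 4.46 and 3.31 to 0.534, 1.04 and 1.79 CPM.

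**Figure D4:**
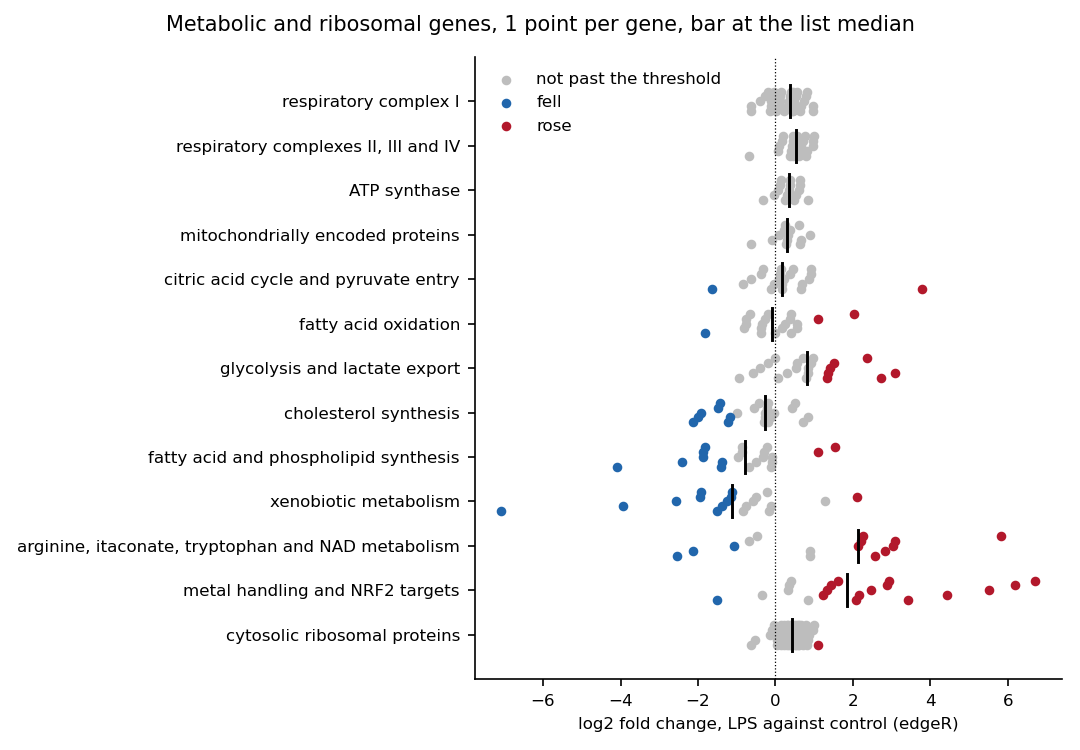
Log2 fold change of every tested gene in the metabolic lists, 1 point for each gene, blue where it fell, red where it rose and grey where it was not called, with a bar at the list median. Detoxification and lipid synthesis lie mostly below 0, glycolysis and metal handling mostly above, and the respiratory chain lists hold no called gene.

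Genes of lipid synthesis fell in part, 35% of the fatty acid and phospholipid list and 31.8% of the cholesterol list beside 21.3% of all tested genes. In the list of fatty acid and phospholipid synthesis 7 of 20 fell and 2 rose (1 without LPS mouse 1), at a median of -0.77, and in that of cholesterol synthesis 7 of 22 fell and edgeR called 0 higher (0 at an unadjusted p and with DESeq2 and limma-voom, 1 without LPS mouse 6 or without LPS mice 6 and 7), at -0.28, or -0.52 without LPS mice 6 and 7 and -0.47 without LPS mouse 7. Scd2, a desaturase that makes monounsaturated fatty acids, was at 965, 910 and 979 CPM in the control mice and 232, 153 and 147 CPM in the LPS mice, a 5.36-fold fall with no overlap. Its relative Scd1 was apart but not called, at 1214, 1253 and 1745 against 966, 841 and 810 CPM. Thrsp, a lipogenic protein of fat and liver, fell from 8.32, 71.3 and 16 to 0.534, 2.31 and 2.74 CPM, with control mouse 2, the mouse with the most adipose RNA, on top. Elovl6, an elongase, rose from 4.26, 13.9 and 6.62 to 27.5, 21.7 and 23.1 CPM. In cholesterol synthesis Mvk, or mevalonate kinase, fell from 20.4, 22.8 and 25.8 to 2.85, 5.72 and 7.2 CPM, Srebf2, the factor of the pathway, was at 189, 180 and 200 against 267, 248 and 257 CPM and not called, and Pmvk, the kinase after Mvk, was at 77.6, 90.8 and 80.1 against 204, 94.7 and 146 CPM and called higher without LPS mouse 6 (1.09 on the log2 scale) or LPS mice 6 and 7 (1.30).

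Genes that detoxify foreign compounds fell in 10 of 19 cases and rose in 1, at a median of -1.12. Cyp1a1, the P450 enzyme induced through the aryl hydrocarbon receptor, was at 16.2, 35.2 and 36.8 CPM in the control mice and 0.119, 0.116 and 0.391 CPM in the LPS mice. It fell, with 2, 2 and 7 counts left in the LPS mice. Fmo1 and Fmo2, flavin monooxygenases named after their values were seen, fell from 542, 608 and 556 to 39.1, 31.2 and 40.6 CPM and from 1464, 1329 and 1270 to 207, 226 and 257 CPM. Cyp2f2, the P450 enzyme of club cells, overlapped at 776, 1432 and 1186 against 782, 473 and 743 CPM and passed the fold of 2 with library size scaling (-1.06). Por, the reductase that feeds electrons to P450 enzymes, rose instead, from 266, 317 and 303 to 1226, 1149 and 1448 CPM.

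Of 15 tested genes of arginine, itaconate, tryptophan and NAD metabolism 8 rose and 3 fell, at a median of 2.14. Ido1, which starts the breakdown of tryptophan, stood at 0.538, 0.986 and 0.46 CPM in the control mice and 59.3, 28.8 and 25.7 CPM in the LPS mice, a 56.8-fold rise with no overlap, while Kmo, an enzyme further down that route, fell from 3.03, 2.68 and 3.82 to 0.593, 0.52 and 0.502 CPM. Nampt, the enzyme of NAD salvage, rose from 80.3, 84.8 and 72.8 to 664, 548 and 474 CPM and Parp14, an ADP-ribosyltransferase induced by interferon, from 113, 130 and 116 to 628, 481 and 536 CPM. Acod1, which makes itaconate, and Nos2, the inducible nitric oxide synthase, named after their values were seen, rose 8.45- and 8.2-fold.

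Genes of metal and redox defence mostly rose, with 14 of 20 genes higher, 1 lower and a median of 1.84. Mt1, a metallothionein that binds zinc and copper, was at 121, 86.2 and 91.2 CPM in the control mice and 5283, 4708 and 3614 CPM in the LPS mice, a 45.6-fold rise, and its relative Mt2 rose from 0.147, 0.422 and 0.368 to 34.4, 32 and 34.6 CPM. Hp, or haptoglobin, which binds free haemoglobin, rose from 551, 813 and 908 to 5906, 5591 and 5855 CPM. Slc40a1, or ferroportin, the iron exporter of cells, was the gene that fell, from 15.2, 15.8 and 11.8 to 2.73, 7.33 and 4.86 CPM, while Fth1, the heavy chain of the iron store ferritin, and Slc39a14, a zinc and iron importer, both named after their values were seen, rose 4.19- and 10.8-fold. Slc7a11, the cystine carrier that feeds glutathione synthesis, named likewise, rose from 1.08, 0.892 and 0.368 to 56.8, 49.2 and 64.7 CPM.

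Cytosolic ribosomal proteins, as a list of 76 genes, had 1 called higher, Rps2, a protein of the small subunit, and edgeR called 0 lower (0 at an unadjusted p and with DESeq2 and limma-voom), at a median of 0.42, or 0.13 with library size scaling. The count higher was 2 without control mouse 1 or LPS mouse 1, 4 without LPS mouse 7, 5 without LPS mice 6 and 7 and 0 with library size scaling. Rplp1 and Rpl41, the most abundant of the list per length, were not called, at 863, 810 and 856 against 1468, 1485 and 1073 CPM and 852, 736 and 779 against 1316, 1277 and 876 CPM. Pseudogenes that share the sequence of such genes make single values uncertain.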

How the data were processed

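RNA of 1 side of the lung of each mouse was sequenced. The authors made the deposited counts by checking reads with FastQC 0.11.9, trimming them with Trim Galore, aligning them to GRCm39 with HISAT2 2.2.1 and counting them per gene with featureCounts 2.0.1. Annotation release, strand and handling of multimapping reads are not given in the sources used here, and 54749 of 55416 gene identifiers matched GENCODE M39.

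From these counts 18560 genes passed the filter of edgeR 4.0.16 on low counts and were fitted over 8 libraries in 3 groups, with TMM scaling and 5 residual degrees of freedom. LPS was compared with control by the quasi-likelihood test with Benjamini-Hochberg adjustment over all tested genes. An exact permutation test of 3 against 3 mice cannot give a two-sided p under 0.1, so none was used. Alternatives used DESeq2 1.42.0, limma 3.58.1 (voom), other scalings, filters and thresholds, and each library left out in turn. R 4.3.3, Python 3.11.15, pandas 2.3.3, numpy 2.4.6 and matplotlib 3.10.9 were used, and the calls were tested on simulated data. The floor of 3 counts covers counting error alone, and SE values include variation between mice of all 3 groups.

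The members and the 49 gene lists (828 different genes) were chosen with earlier results of these data known. Named were the 10 highest and 10 lowest called protein-coding genes by log2 fold change without overlap of the groups and with at least 10 CPM in the lowest library of the higher group. In each list the 2 most abundant genes per kb of exon, the largest rise and the largest fall were named. The largest rises and falls were picked among called genes, so an adjusted p under 0.05 for them followed from the choice. Genes named beyond these were chosen after their values were seen, whether or not this is said beside them. This holds also for the members at 0 counts of the squamous list. Several promoter motifs were searched and are not reported.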

Additional observations from a re-analysis of the deposited data

How the results depend on the processing

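Of 98 list counts, DESeq2 left 94 within 1.5 times their value, limma-voom 93, upper-quartile scaling 92, library size scaling 80, leaving out 1 library 85 to 93 and leaving out LPS mice 6 and 7 together 71. Without those 2 mice 22 of 49 list medians moved by more than the spread between replicates and 2 changed sign. No paired analysis was possible because control (1, 2, 4) and LPS (1, 6, 7) share only the number 1. Genes under the floor of 3 counts per library cannot be read.

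In what follows the cause was not tested, except that stricter thresholds and filters leave fewer genes by their construction. With no fold change, 6046 genes were higher and 6300 lower, and the counts became type 2 lower 10, type 1 lower 10, club higher 6, ciliated higher 11, junctions higher 8, adventitial lower 4, B and plasma cells lower 11, red cells higher 4, fatty acid oxidation higher 7, glycolysis higher 16, fatty acid synthesis lower 14, ribosomal higher 48, complex I higher 20, complexes II to IV higher 20, ATP synthase higher 9 and mitochondrially encoded proteins higher 6. Tested against a fold of 2, 2175 genes were higher and 2605 lower, with junctions higher 3, lineage factors lower 5, adventitial lower 1, T cells lower 0, red cells higher 0, adipose lower 0, fatty acid oxidation higher 1, xenobiotic lower 5 and ribosomal higher 0. With a minimum of 10 counts in each library, 2194 genes were higher, with dendritic lower 2, B and plasma cells lower 2, T cells lower 1, squamous higher 1, skeletal muscle higher 8, adipose lower 0 and liver lower 0, and the medians of dendritic cells (1.41) and T cells (0.10) changed sign.

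With library size scaling the counts were type 2 lower 8, junctions higher 3, T cells lower 6, red cells higher 1, fatty acid oxidation higher 1 and lower 4 and ribosomal higher 0, and medians changed sign for ion and water transport (-0.02), natural killer cells (-0.13), red cells (-0.13), heart muscle (-0.09) and citric acid cycle (-0.13). DESeq2 called 3 ribosomal genes higher. Limma-voom called 0 squamous genes higher, 3 of skeletal muscle higher and 0 adipose lower, with an adipose median of 0.21. In a fit of the 6 libraries alone squamous higher was 2 and liver lower 0, with medians of 0.43 for liver, 1.16 for squamous epithelium, 0.91 for natural killer cells and -2.27 for arterial endothelium. With no filter the medians of basophils and mast cells (0.48), thymus (0.86) and liver (0.77) changed sign.

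Without LPS mice 6 and 7, where the lone LPS library is assumed to vary like the other groups, the counts were adventitial lower 1, T cells lower 1, red cells higher 4, squamous higher 0, skeletal muscle higher 1, heart muscle lower 1, adipose lower 0, liver lower 0 and ribosomal higher 5, and the medians of squamous epithelium (-2.63) and heart muscle (-0.09) changed sign. Leaving out 1 library at a time, the ranges were type 2 lower 5 to 8, ciliated higher 1 to 6, T cells lower 1 to 6, red cells higher 0 to 2, squamous higher 4 to 15, skeletal muscle higher 8 to 13, adipose lower 0 to 1 and ribosomal higher 1 to 4. The medians ranged from -0.36 to 0.06 for alveolar macrophages, from -0.41 to -0.04 for T cells, from -0.13 to 0.41 for natural killer cells, from -0.18 to 0.59 for red cells, from -0.09 to 0.60 for heart muscle, from -0.70 to 1.01 for adipose tissue, from -0.34 to 0.03 for liver and from -0.22 to 0.02 for fatty acid oxidation, and the fitted log2 fold change of Ucp1 from -3.41 to 7.07. The upper end for Ucp1 rests on control mice 1 and 4, at or under the floor of 3 counts.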

Other observations

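Cell division genes were higher in LPS mice in 10 of 20 cases and lower in 1, with a median log2 fold change of 1.07 beside -0.01 over all tested genes, and 0.78 with library size scaling. Ccnb1, the cyclin that starts mitosis, stood at 0.489, 1.27 and 0.782 CPM in the control mice and 6.11, 5.66 and 3.63 CPM in the LPS mice. All LPS mice lay above all control mice, a 6.01-fold rise (2.59 ± 0.38 on the log2 scale). Bub1, a kinase of the mitotic checkpoint, fell instead, from 2.5, 3.38 and 3.59 to 0.653, 1.21 and 0.558 CPM. Pcna, the clamp of DNA polymerase, and Mcm6, a subunit of the replication helicase, were the most abundant of the list per length and were not called, at 82.8, 75.7 and 74.8 against 121, 95.9 and 81.2 CPM and 26.4, 25 and 28.5 against 44.9, 39.4 and 34.8 CPM. Mki67, a nuclear protein of cycling cells named after its values were seen, rose from 7.68, 6.66 and 7.26 to 40, 25.8 and 26 CPM. Which cells expressed these genes was not tested.

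Genes of the circadian clock moved apart, with 6 of 16 higher and 2 lower around a median of 0.48 (0.19 with library size scaling). These shares, 37.5% and 12.5%, stood beside 17.9% and 21.3% of all tested genes. Per1, a repressor of the clock that stress hormones also induce, stood at 112, 66.2 and 62.5 CPM in the control mice and 1132, 833 and 955 CPM in the LPS mice. It rose 12.1-fold (3.60 ± 0.27 on the log2 scale), with no overlap. Npas2, a partner of Bmal1 in the activating complex, fell from 9.93, 11 and 12.6 to 3.32, 3.47 and 3.8 CPM, and Nr1d1, the repressor of Bmal1, was not called at 103, 112 and 104 against 141, 152 and 155 CPM. Cry2 and Bhlhe40, further repressors named after their values were seen, rose from 84.2, 74 and 72.2 to 579, 377 and 480 CPM and from 55.2, 49.4 and 57.4 to 427, 317 and 324 CPM. The hour of the day at which each group was killed is not given in the sources used here, so effects of hour and of LPS cannot be told apart.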
